A study of Rattus norvegicus with 10 samples.

Results

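The mRNA of 9 genes that move calcium across membranes was examined in the hippocampus of young male Wistar rats on Affymetrix GeneChip arrays of the rat genome. The genes were Atp2a2, Atp2a3, Atp2b1, Atp2b2, Atp2b3, Atp2b4, Ryr2, Itpr1 and Cacna1d, and every probe set annotated with exactly 1 of these symbols was taken. These are 9 of the 14217 genes named on the array, with 22 of its 31042 probe sets, and each is described separately. The C-group (5 rats) ate solid chow and the P-group (5 rats) powder chow, both for 8 days from about 3 weeks of age after a short period in which all rats ate powdered feed, and the labels give an age of 4 weeks. Feed and water were freely available in both groups, 1 array was made per rat from 100 ng of total RNA, and no rat carried a genetic change. The hippocampi were dissected by hand and hold all cell types of the tissue, so fewer cells of a type and less RNA per cell cannot be told apart. The rats are named C1 to C5 and P1 to P5 after their labels. The comparison asks whether the softness of the feed, and thereby the amount of chewing, goes with a different expression of these genes.

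Calcium enters neurons through channels in the plasma membrane, is released from the endoplasmic reticulum through ryanodine and inositol trisphosphate receptors, and is removed again by ATP-driven pumps. The Atp2a genes encode the SERCA pumps, which return calcium to the endoplasmic reticulum, and the Atp2b genes encode the PMCA pumps, which export it from the cell. Ryr2 is the main ryanodine receptor of the forebrain, Itpr1 the main neuronal inositol trisphosphate receptor, and Cacna1d encodes the pore of an L-type calcium channel. Cacna1d is thus neither a pump nor a release channel, although it belongs to the same group of genes here.

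Of the 22 probe sets, 8 varied between rats, and these belonged to 5 of the 9 genes. The deposited values come from qFARMS, a summary method that returns a nearly flat value for a probe set in which no common signal is found across its probes. A probe set was therefore called variable when its standard deviation (SD) over the 10 rats was above 0.01 log2 units, which held for 36.4% of the probe sets of these genes and for 9.36% of all probe sets. The SERCA pump gene Atp2a3, the PMCA genes Atp2b3 and Atp2b4, and Cacna1d had no variable probe set. The values of these 4 genes, with 2, 3, 1 and 3 probe sets, were nearly constant over the rats, so no difference between the diets could be measured at these probe sets. Atp2a2 had 2 variable probe sets of 5, Atp2b1 3 of 3, Atp2b2 and Ryr2 1 of 2 each, and Itpr1 1 of 1. The 14 invariable probe sets had SDs from 0.000116 to 0.00409 and differed between the groups by at most 0.00107 log2 units. The limit fell in a wide gap, since the least variable of the 8 probe sets had an SD of 0.0738.

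**Figure D1:**
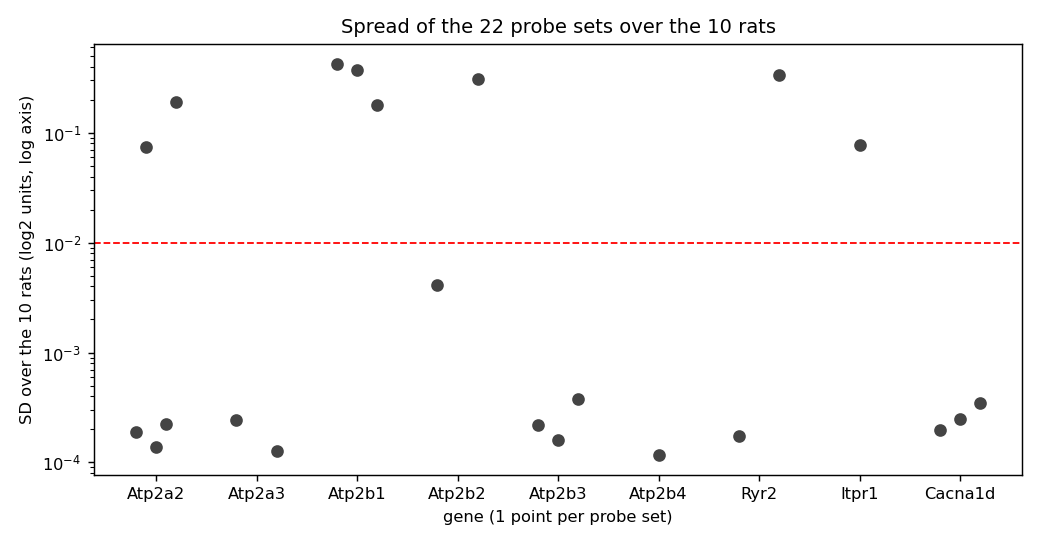
SD over the 10 rats (vertical log axis, log2 units) of each of the 22 probe sets, grouped by gene on the horizontal axis. The dashed red line marks 0.01, and the 8 probe sets above it belong to Atp2a2, Atp2b1, Atp2b2, Ryr2 and Itpr1.

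No probe set of the 9 genes passed limma, which weighs a difference against the spread between rats, and 3 were called higher in the C-group by rank products, the method of the study, which ranks differences by size alone. The 3 were the single variable probe sets of Ryr2 and Atp2b2 and 1 of Atp2a2. Among the pathway genes that the study gives as higher in the C-group are also Atp2b1, Atp2b4 and Cacna1d, which were not called at the probe sets taken here. The study names these genes without their probe sets, and probe sets with several symbols or none were not taken here. Its calls may thus rest on other probe sets, which was not tested. Rank products called 2% of all probe sets and 21.3% of the 2904 variable ones higher in the C-group at a false discovery rate (FDR) under 0.05. None of the 22 was called lower, against 0.416% of all probe sets and 4.44% of the variable ones. With limma, the adjusted p-values of the 22 ran from 0.927 to 0.999, none had an unadjusted p under 0.05, and limma called 0% of all probe sets (2.95% at an unadjusted p under 0.05). The groups overlapped in all 8 variable probe sets, and in all but 0.207% of the variable probe sets of the array. Of the 8 differences, 6 were above 0 and 2 below, with a median of 0.04 log2 units, against a median of 0.07 over all 2904 variable probe sets, of which 68.3% were above 0. Without C1 the order of these medians turned, to 0.10 for the 8 probe sets and 0.04 over all variable ones.

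Rat C1 stood apart from the others across the array and also in these genes. Among all 10 rats it ranked highest in 1553 of the 2904 variable probe sets and lowest in 641. Among the 8 probe sets it was the highest in 4 and the lowest in 3. Leaving out C1 moved the difference the most in 5 of the 8, those of Atp2a2 and Atp2b1, and without C1 no probe set of the 9 genes was called by rank products. Over the whole array, the higher calls went from 620 to 61 without C1.

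**Figure D2:**
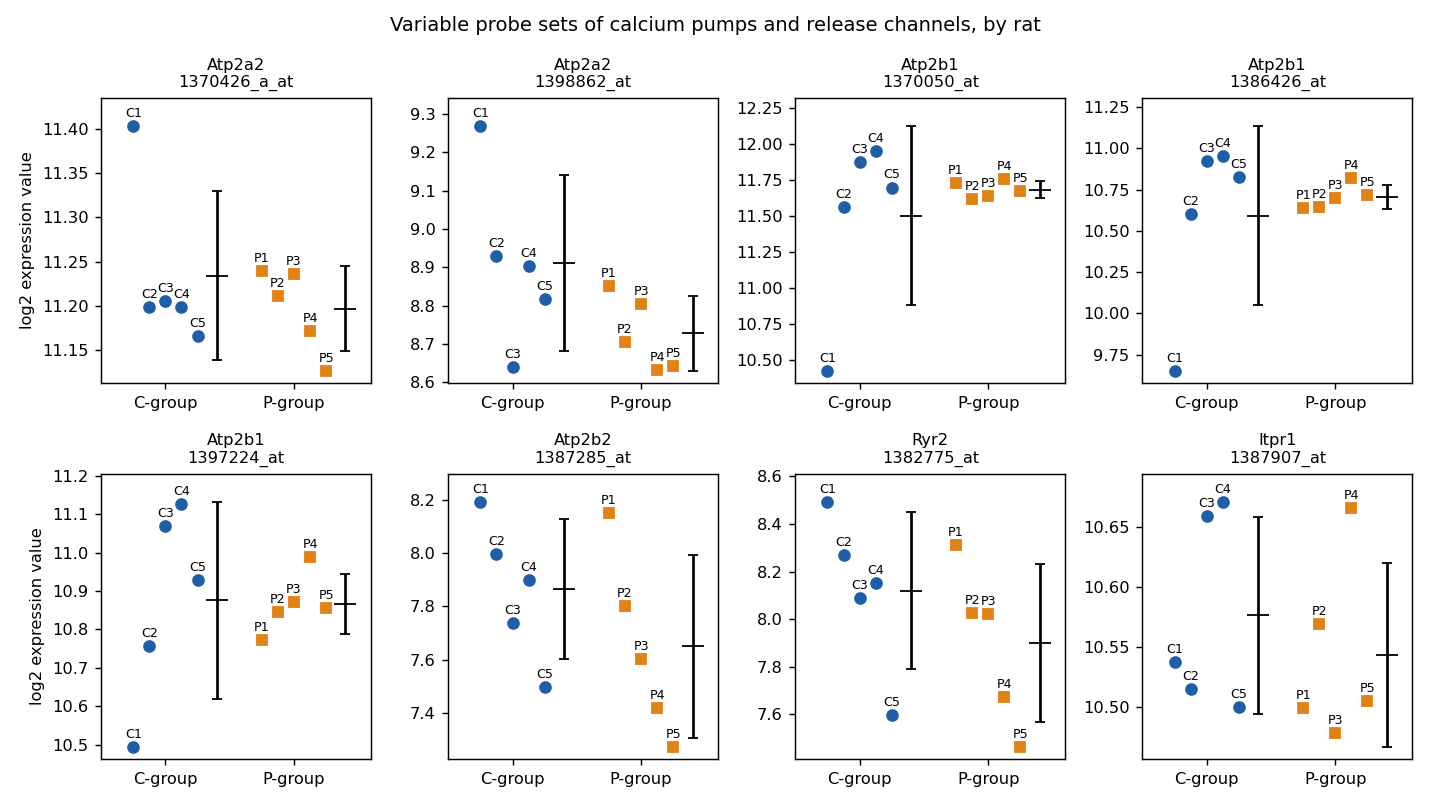
Log2 expression value (vertical axes, each with its own range) of the 8 variable probe sets in each C-group rat (blue circles, C1 to C5) and each P-group rat (orange squares, P1 to P5), with the group mean and SD in black (n = 5 rats). C1 is the highest value for Atp2a2, Atp2b2 and Ryr2 and the lowest for Atp2b1.

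Among the release channels, Ryr2 had the largest difference of the 8 probe sets. The variable probe set of Ryr2 (1382775_at) had log2 values of 8.49, 8.27, 8.09, 8.15 and 7.60 in C1 to C5 and 8.31, 8.02, 8.02, 7.67 and 7.46 in P1 to P5. Rats C1 and P1 were high, and C5, P4 and P5 were low, so that each group spread over nearly the whole range. Mean values were 8.12 ± 0.331 for the C-group and 7.90 ± 0.332 for the P-group (SD, n = 5 rats each). The difference of 0.22 log2 units had a standard error of 0.20 and a 95% interval from -0.24 to 0.68 with limma (adjusted p = 0.927). Its FDR with rank products was 0.0262, and p = 0.294 in a two-sided exact permutation test of this probe set alone (n = 5 per group). The difference was 0.35 without C5, which moved it the most, 0.13 without C1 and 0.11 without P5, and Ryr2 kept its call in 4 of the 10 sets with 1 rat left out, losing it without P4, P5 or any C-group rat but C5. The other probe set of Ryr2 (1382088_at), at 10.48 in both groups, did not vary.

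Itpr1, which releases calcium on inositol trisphosphate, had a narrow range over the 10 rats. Its only probe set (1387907_at) was 10.54, 10.52, 10.66, 10.67 and 10.50 in C1 to C5 and 10.50, 10.57, 10.48, 10.67 and 10.51 in P1 to P5. C3, C4 and P4 lay above the other rats, 2 of them in the C-group and 1 in the P-group. The difference was 0.03 log2 units (standard error 0.05, adjusted p = 0.932 with limma), with a 95% interval from -0.08 to 0.14, and it was not called. Leaving out P4 moved it the most, to 0.06.

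Among the pumps of the plasma membrane, Atp2b2 was called higher in the C-group and none of the probe sets of Atp2b1 was called. The variable probe set of Atp2b2 (1387285_at) was 8.19, 8.00, 7.74, 7.90 and 7.50 in C1 to C5 and 8.15, 7.80, 7.60, 7.42 and 7.27 in P1 to P5. C1 and P1 were again the highest rats of their groups and C5 and P5 the lowest. The means were 7.86 ± 0.262 (SD, n = 5 rats) and 7.65 ± 0.342 (SD, n = 5), and the difference of 0.21 had a standard error of 0.19 and a 95% interval from -0.21 to 0.64 (adjusted p = 0.927 with limma). The FDR was 0.0267 and the two-sided exact permutation test gave p = 0.294. The difference was 0.34 without P1, which moved it the most, 0.13 without C1 and 0.12 without P5, and the call was kept in 5 of the 10 sets and lost without C1, C2, C4, P4 or P5. The second probe set of Atp2b2 (1368698_at) had the largest SD of the invariable ones and differed by 0.00107 log2 units.

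The 3 probe sets of Atp2b1 gave the same picture, a C-group that was spread by C1 on the low side. The first (1370050_at) was 10.42 in C1 and 11.56, 11.87, 11.95 and 11.70 in C2 to C5, and 11.72, 11.62, 11.64, 11.76 and 11.67 in P1 to P5. C1 lay 1.35 log2 units under the mean of the other rats of its group, while the rats of the P-group lay close together. The second (1386426_at) was 9.65, 10.60, 10.92, 10.95 and 10.82 in C1 to C5 and 10.64, 10.64, 10.70, 10.82 and 10.72 in P1 to P5. The third (1397224_at) was 10.49, 10.76, 11.07, 11.13 and 10.93 in C1 to C5 and 10.77, 10.85, 10.87, 10.99 and 10.86 in P1 to P5. In each of the 3, C1 was the lowest and C4 the highest of the 10 rats, and C2 was the second lowest. In the same order, the C-group differed from the P-group by -0.18 (standard error 0.27), -0.11 (0.24) and 0.01 (0.12) on the log2 scale (adjusted p = 0.932, 0.948 and 0.993 with limma). Without C1 they were 0.09, 0.12 and 0.10. The SD of the C-group was 0.621, 0.543 and 0.256 with C1 and 0.18, 0.16 and 0.16 without it, and that of the P-group was 0.0584, 0.0733 and 0.0773.

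The pump of the endoplasmic reticulum, Atp2a2, was called at 1 of its 5 probe sets. This probe set (1398862_at) was 9.27, 8.93, 8.64, 8.90 and 8.82 in C1 to C5 and 8.85, 8.71, 8.80, 8.63 and 8.64 in P1 to P5. C1, C2 and C4 lay above all rats of the P-group, and C3 lay with the lowest rats, P4 and P5. The means were 8.91 ± 0.229 (SD, n = 5 rats) and 8.73 ± 0.0978 (SD, n = 5), and the difference of 0.18 had a standard error of 0.11 and a 95% interval from -0.06 to 0.43 (adjusted p = 0.927 with limma). The FDR was 0.042, and p = 0.119 in the two-sided exact permutation test, the smallest of the 8 probe sets. Without C1 the difference was 0.10, and the call was kept in 3 of the 10 sets, those without C3, P1 or P3. The other variable probe set (1370426_a_at) was 11.40 in C1, 11.20, 11.21, 11.20 and 11.17 in C2 to C5, and 11.24, 11.21, 11.24, 11.17 and 11.13 in P1 to P5. C1 was thus high here too, while C2 to C5 lay within the range of the P-group. This probe set differed by 0.04 (standard error 0.05, adjusted p = 0.929 with limma) and by -0.0049 without C1. The remaining 3 probe sets of Atp2a2 did not vary.

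**Figure D3:**
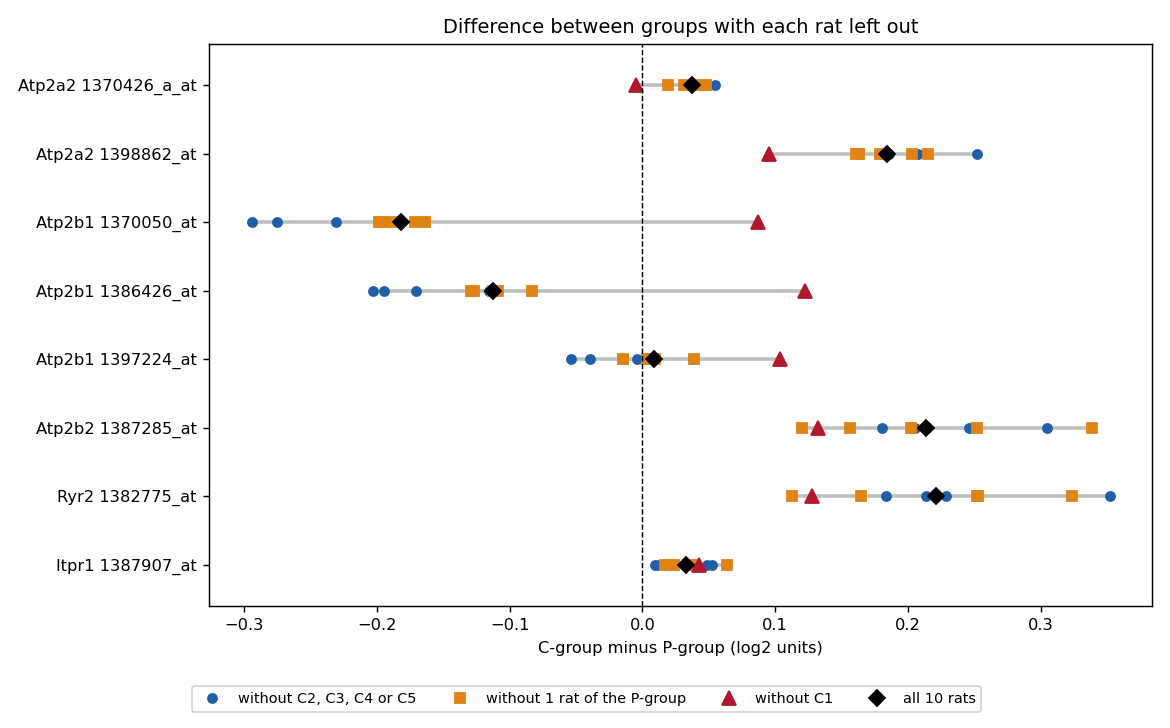
Difference of the C-group minus the P-group (horizontal axis, log2 units) for each variable probe set with all 10 rats (black diamonds) and with each rat left out (red triangle for C1, blue circles for the other rats of the C-group, orange squares for the P-group). Without C1, the difference of Atp2b1 1370050_at moves from -0.18 to 0.09, whereas those of Ryr2 and Atp2b2 stay above 0 in each of the 10 sets.

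Some of the 8 probe sets went up and down together from rat to rat. Correlations are given as a description over the 10 rats, which share the normalization of the arrays, and the pairs were singled out after all 28 had been computed. Ryr2 and Atp2b2 went closely together, with Pearson's r = 0.96 and Spearman's rho = 0.98. The r was 0.95 without C1 and 0.92 without C1 and P5, the rats farthest from the median of Atp2b2. The probe sets of Atp2b1 went together as well, with r from 0.88 to 0.99 (rho from 0.85 to 0.98), and from 0.89 to 0.98 without C1. Ryr2 and Atp2b2 ran against Atp2b1 with r from -0.54 to -0.46, and from -0.26 to 0.08 without C1. The 2 probe sets of Atp2a2 went with each other at r = 0.84 (rho = 0.43) and against Atp2b1 at r from -0.88 to -0.69. This rested on C1, since without C1 these values were 0.43 and from -0.23 to -0.0013. With Ryr2 and Atp2b2, both probe sets of Atp2a2 went in the same direction, with r from 0.71 to 0.79, and from 0.60 to 0.85 without C1. Itpr1 was near 0 against Ryr2 (r = 0.0038), and its r with the probe sets of Atp2b1 was 0.31, 0.33 and 0.63, or 0.76, 0.73 and 0.82 without C1.

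**Figure D4:**
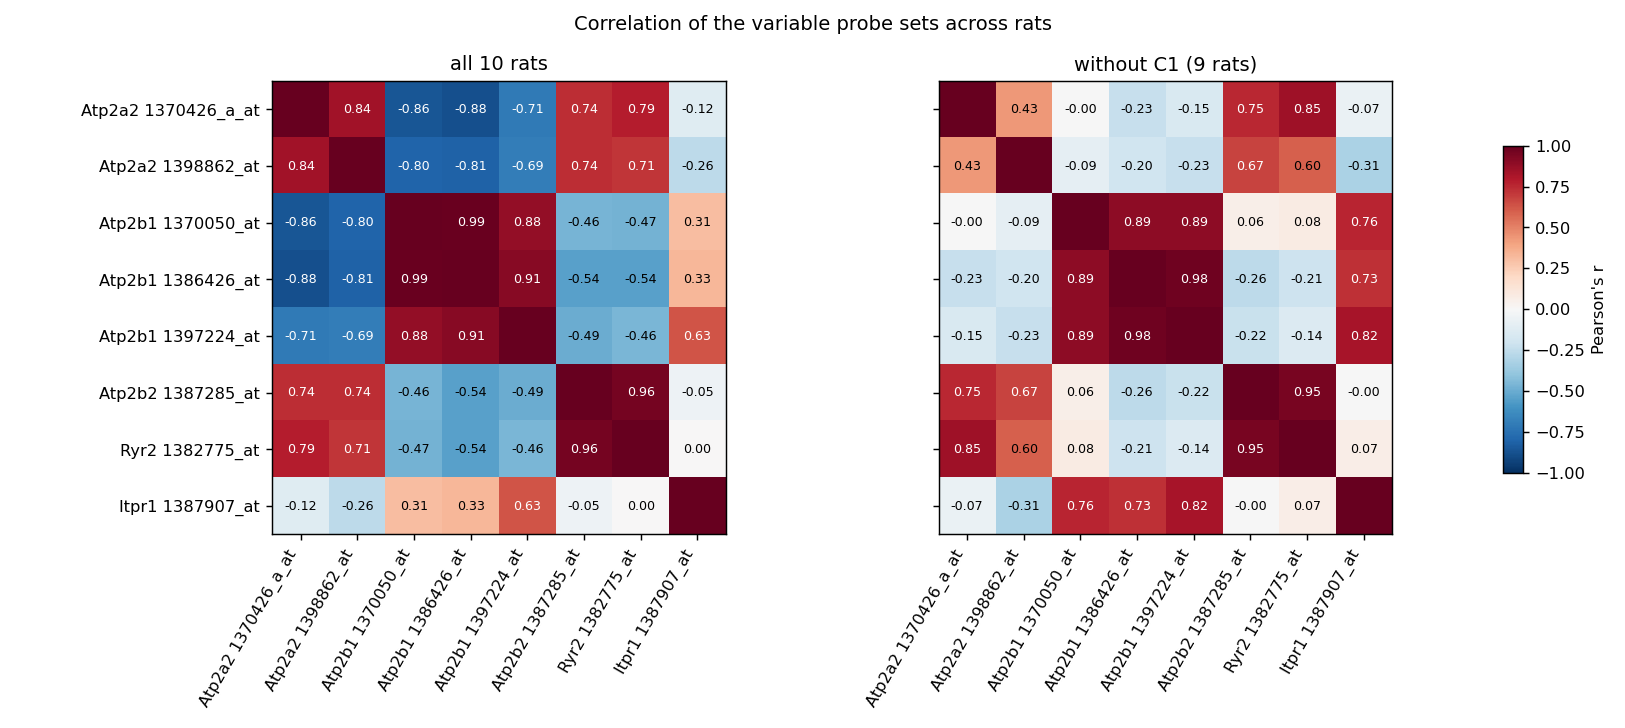
Pearson's r between the 8 variable probe sets over the 10 rats (left) and over the 9 rats without C1 (right), from blue (-1) to red (1). The block of the 3 probe sets of Atp2b1 and the pair of Ryr2 and Atp2b2 (0.96 and 0.95) are red in both panels, whereas the blue of Atp2a2 against Atp2b1 is seen only with C1.

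**Figure D5:**
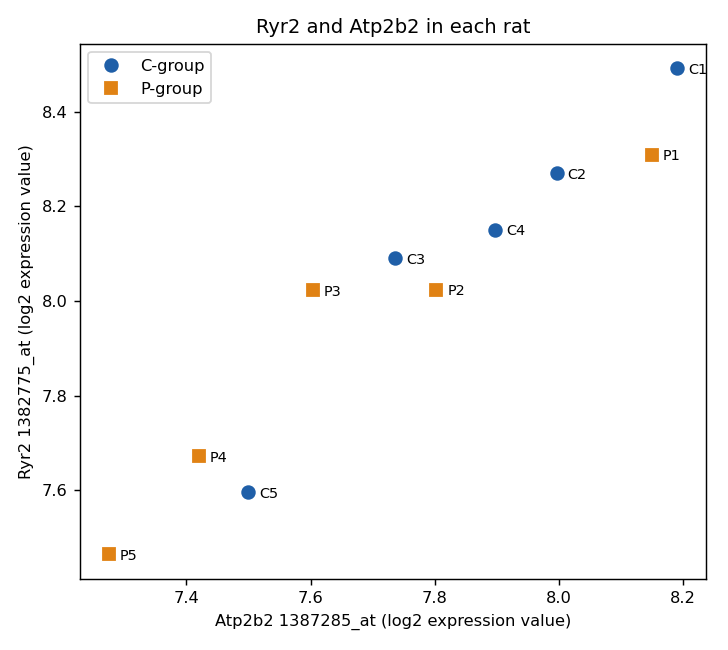
Log2 value of Ryr2 (vertical axis) against Atp2b2 (horizontal axis) in each rat of the C-group (blue circles) and the P-group (orange squares). C1 and P1 lie at the upper right and C5, P4 and P5 at the lower left, so that both groups spread along the same line.

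The promoters of Ryr2, Atp2b2 and Atp2b1 are shown because the probe sets of Ryr2 and Atp2b2 went together over the rats and those of Atp2b1 did not go with them. The sequences are those of RefSeq for the rat assembly GRCr8, from 250 bases before to 50 bases after the start of the gene, written 5′ to 3′ on the strand of the gene. Capitals mark GC boxes (GGGCGG on either strand, overlapping matches joined).
Ryr2, chr17:63081277-63081576, plus strand: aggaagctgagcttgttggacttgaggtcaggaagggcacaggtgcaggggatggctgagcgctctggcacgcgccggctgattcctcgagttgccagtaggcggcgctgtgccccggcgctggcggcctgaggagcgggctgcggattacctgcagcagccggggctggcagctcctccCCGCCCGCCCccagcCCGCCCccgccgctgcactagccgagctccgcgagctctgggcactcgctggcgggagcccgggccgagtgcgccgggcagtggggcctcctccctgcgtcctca
Atp2b2, chr4:148763604-148763903, minus strand: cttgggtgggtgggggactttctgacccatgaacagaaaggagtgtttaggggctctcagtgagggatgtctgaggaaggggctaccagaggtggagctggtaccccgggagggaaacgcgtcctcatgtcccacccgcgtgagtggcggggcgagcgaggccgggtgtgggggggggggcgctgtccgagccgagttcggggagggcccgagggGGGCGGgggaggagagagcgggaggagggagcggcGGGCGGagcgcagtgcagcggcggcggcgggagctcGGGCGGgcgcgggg
Atp2b1, chr7:35622211-35622510, plus strand: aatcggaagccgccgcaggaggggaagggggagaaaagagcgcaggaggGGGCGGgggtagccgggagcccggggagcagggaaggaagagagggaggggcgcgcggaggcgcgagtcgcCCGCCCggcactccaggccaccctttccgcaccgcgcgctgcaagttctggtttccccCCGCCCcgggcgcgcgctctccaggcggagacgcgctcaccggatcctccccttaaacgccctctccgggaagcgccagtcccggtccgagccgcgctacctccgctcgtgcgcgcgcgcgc
Each of the 3 held 3 GC boxes, and a GC box was found in 33.1% of all 33469 promoters of this length. Their GC content was 73%, 72.3% and 74.3%, against a median of 51.7% over all promoters. Of the 9 genes, 8 had a promoter in the RefSeq table, and 6 of these held a GC box, the exceptions being Itpr1 and Atp2b4. A TATA box (TATAAA), a cAMP response element (TGACGTCA) and an E-box (CACGTG), searched on both strands, were found in none of the 8, against 14.2%, 1.83% and 6.42% of all promoters. These matches describe the letters only.

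The genes whose probe sets followed each of the 8 most closely were sought among the 2035 other variable probe sets with 1 symbol, by Pearson's r over the 10 rats. For Ryr2 they were Aff4 (r = 0.98), a subunit of a transcription elongation complex, and Kif5c (r = 0.98), a kinesin motor of neurons. For Atp2b2 they were Pex5l (r = 0.99), a subunit of HCN channels, and Map1b (r = 0.98), a microtubule-associated protein. Without C1 the r of Aff4 and Kif5c with Ryr2 was 0.98 and 0.97, and that of Pex5l and Map1b with Atp2b2 was 0.99 and 0.98. An r above 0.9 was found for 167 probe sets with Ryr2 and for 170 with Atp2b2. Aff4, Pex5l and Map1b were called higher in the C-group by rank products, with differences of 0.25 (standard error 0.25), 0.24 (0.28) and 0.27 (0.23) log2 units, and Kif5c was not called.
For Atp2b1 the closest genes were Enc1 and Snn at the first probe set (r = 0.99 each), Sphkap (r = 0.99), which anchors protein kinase A, and Snn at the second, and Robo3 and Camk2b (r = 0.98 and 0.97), the latter a subunit of calcium/calmodulin-dependent kinase II, at the third. None of these was called. Without C1 their r, in the same order, was 0.80 and 0.88 at the first probe set, 0.94 and 0.88 at the second, and 0.96 and 0.97 at the third. For Atp2a2 the closest genes were Orc3 and Polr2m (r = 0.99 and 0.97) at the called probe set and Sox2 and Gpbp1 (r = 0.96 and 0.95) at the other. Without C1 these values were 0.98 and 0.93 at the called probe set and 0.81 and 0.77 at the other. Itpr1 was followed less closely, with no probe set above an r of 0.9, and the highest were Itpka (r = 0.88), the kinase that phosphorylates inositol trisphosphate, and Degs1 (r = 0.88).

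Of the other genes of calcium handling, 1 was called higher and 1 lower by rank products, and none passed limma. The lists for this were chosen by role. Each of these 2 genes was called at 1 probe set, while over the array 21.3% of the variable probe sets were called higher and 4.44% lower. Of 10 other calcium pumps and exchangers, all had a probe set, 4 had a variable one and none was called. Atp2c1, the calcium pump of the Golgi apparatus, differed by -0.22 log2 units (standard error 0.18), and by -0.04 without C1, and Slc24a2, a potassium-dependent sodium-calcium exchanger, by 0.09 (standard error 0.10, and 0.05 without C1) at one probe set and by -0.0079 at its other variable one. Of 11 other release channels and genes of store-operated entry, all had a probe set, 3 had a variable one and none was called. They were the ryanodine receptor genes Ryr3 and Ryr1 and the entry channel gene Orai2, with differences of -0.06, -0.03 and -0.08 (standard errors 0.12, 0.07 and 0.14), within the spread between rats. Without C1 the differences of Ryr3, Ryr1 and Orai2 were -0.01, -0.0035 and 0.04.
Of 21 measured genes of other voltage-gated calcium channel subunits, 2 had a variable probe set, Cacna1h (-0.09, standard error 0.20) and Cacna2d3 (-0.09, standard error 0.16), and without C1 these differences were 0.10 and 0.07. Of 16 measured partners and regulators of the pumps and release channels, 5 had a variable probe set. Homer1, a scaffold that binds both inositol trisphosphate and ryanodine receptors, was called lower at 1 of its 4 variable probe sets (1370997_at). This probe set was 6.62, 6.98, 7.40, 7.15 and 7.33 in C1 to C5 and 7.01, 7.47, 7.46, 7.43 and 7.26 in P1 to P5, with a difference of -0.23 (standard error 0.16, adjusted p = 0.927 with limma). C1, C2 and P1 were the lowest rats, and the difference was -0.11 without C1, when the probe set was still called lower. The other 3 probe sets of Homer1 differed by 0.05, -0.16 and 0.01, so the probe sets of this gene did not share a direction. Without C1 these 3 differences were 0.02, 0.02 and -0.0090. Bsg, which encodes a subunit of PMCA pumps, differed by 0.07 (standard error 0.06), and Ahcyl1, a regulator of inositol trisphosphate receptors, by 0.07 (standard error 0.10). Without C1 these differences were 0.02 and -0.0047.
Of 11 calcium buffers and store proteins, 4 had a variable probe set, and Canx, the chaperone calnexin of the endoplasmic reticulum, was called higher at its variable probe set (1371687_at). It was 9.49, 9.03, 8.89, 8.96 and 8.89 in C1 to C5 and 9.15, 8.86, 8.94, 8.63 and 8.71 in P1 to P5. The difference was 0.20 (standard error 0.14, adjusted p = 0.927 with limma), and 0.09 without C1, when it was not called. The difference was 0.09 (standard error 0.09) for Pdia3, a disulfide isomerase of the same compartment, and for Hpca, the neuronal calcium sensor hippocalcin, it was -0.03 (standard error 0.04). Without C1 these were 0.0098 and -0.0050. None of 7 measured genes of mitochondrial calcium uptake had a variable probe set. The median difference of the variable probe sets was 0.0036 for the pumps and exchangers, -0.06 for the release channels and store-operated entry, -0.09 for the voltage-gated channels, -0.02 for the partners and 0.06 for the buffers, against 0.07 over all variable probe sets. These medians include C1, and those of the lists were not computed without it. Without C1 the median over all variable probe sets was 0.04, and the voltage-gated Cacna1h and Cacna2d3 differed by 0.10 and 0.07.

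Markers of other cell types varied between the rats, and their part in the results was not tested. The mean log2 value of 8 variable probe sets of choroid plexus markers ran from 6.49 to 9.10 in the C-group and from 6.31 to 8.64 in the P-group, and P1, second highest for Ryr2 and Atp2b2, was the lowest rat. All 8 were called higher in the C-group by rank products, with a median difference of 0.60 log2 units, and those of Ttr, Sostdc1 and Cldn2 kept the call without C1. The mean of 9 pineal marker probe sets was 8.46 in P2 and from 6.10 to 6.21 in the other 9 rats. Of these genes 5, Aipl1, Gnb3, Gngt1, Pdc and Pde6g, were called lower in the C-group, with and without C1. Leaving out C1 cannot test these calls, since P2 was the highest rat for each of the 5. Their calls without P2 are not given here, and over the whole array the lower calls went from 129 to 21 without P2. For astrocytes, 4 of 7 measured markers were variable, and their mean ran from 9.73 to 10.13 in the C-group and was between 9.53 and 9.75 in P2 to P5. P1 was above every rat but C1, as it was for Ryr2 and Atp2b2, and the r of this mean was 0.95 with Atp2b2 and 0.88 with Ryr2. With Atp2a2 it was 0.85 at the called probe set and 0.79 at the other variable one, and with Atp2b1 from -0.68 to -0.62. Among these markers, Aqp4, Slc1a3 and Gja1 were called higher in the C-group by rank products, with differences of 0.32, 0.27 and 0.22 log2 units. Without C1 these were 0.12, 0.13 and 0.13, and none was called. With all rats, Gfap differed by -0.15 log2 units and was lowest in C1, at 10.71. The mean of 4 microglial probe sets was 8.60 in C1 and from 8.02 to 8.20 in C2 to C5, against 8.14 to 8.27 in the P-group. Its r with the 3 probe sets of Atp2b1 was -0.88, -0.86 and -0.67, with C1 the highest rat for this mean and the lowest for each probe set. With Atp2a2 it was 0.81 (1370426_a_at) and 0.68 (1398862_at). Of the microglial probe sets none was called with all rats, and C1qa (-0.09) was called lower without C1 (-0.16). The r of the marker means, here and for astrocytes, were not computed without C1. The mean of 10 probe sets of hippocampal neuron markers ran from 9.13 to 9.46 in the C-group and from 9.05 to 9.32 in the P-group. Among them, 3 probe sets of Zbtb20 were called higher (0.24, 0.30 and 0.16 log2 units), none of them without C1, and its other variable one (-0.02) was not called. Neurod6 was called lower (-0.25), also without C1 (-0.31), and was lowest in C2, at 9.82. The ranges were 10.78 to 11.15 and 10.74 to 11.10 for oligodendrocytes, 7.74 to 8.22 and 7.40 to 8.11 for vessels and meninges, and 7.92 to 8.26 and 7.97 to 8.28 for the thalamus. Dcn, of the vessels and meninges, was called higher (0.13), but not without C1. For the cerebellum they were 6.94 to 7.45 and 7.10 to 7.57, and for the single variable blood probe set 12.14 to 12.42 and 12.05 to 12.40.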

How the data were processed

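Hippocampal total RNA of 5 rats per group was measured on 1 array each. The log2 values were used as deposited: the authors had normalized and summarized them with qFARMS, and 57 control probe sets were dropped. Of 31042 probe sets, 20826 carried 1 gene symbol in the platform annotation, 436 carried several and were not named, and 9780 had none. All 9 genes matched RefSeq (GRCr8) by gene identifier.

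Unpaired rank products used the 25 differences between rats of different groups and 100 permutations of the values within arrays (numpy 2.4.6 and pandas 2.3.3 under Python 3.11.15), with the FDR taken as the percentage of false predictions and a threshold of 0.05. limma 3.58.1 (R 4.3.3) gave standard errors, intervals and p-values adjusted over all probe sets by Benjamini-Hochberg. Both were also run on simulated data, whose outcome is not given here. The simulated noise was independent between probe sets and no rat was outlying. It therefore cannot show how either method behaves with a rat such as C1. Exact permutation tests (scipy 1.17.1) enumerated 252 splits. The array that sets a difference is the one whose omission moves it the most. Alternatives covered normalization, filters, variance models and single rats.

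The 9 genes, lists and markers were chosen with earlier results of these data known. Variable probe sets of the 9 genes, the called genes of each list with up to 2 others of smallest limma p, and the 2 genes most correlated with each probe set were named. Ryr1 and the markers were named after their values were seen. Nothing used here says whether rats shared a litter. Arrays give no read depth, and their number limits the precision.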

Additional observations from a re-analysis of the deposited data

Results flagged for a closer look

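C1 was an outlier of the C-group in 3 probe sets, by the gap to its nearest neighbour relative to the range of the 5 rats (Dixon's ratio, critical value 0.71). Its value was 11.40 for Atp2a2 (1370426_a_at, ratio 0.833), above the other rats, and 10.42 and 9.65 for Atp2b1 (1370050_at and 1386426_at, ratios 0.745 and 0.731), below them. Of 16 groups of 5 rats tested, 3 were outlying, and chance gives about 1 in 20. The values share 1 rat, and 2 of them share a gene, so they are not independent.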

How the results depend on the processing

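The number of probe sets of the 9 genes called higher by rank products was 3 with the replicate block, median-centred arrays, quantile normalization and 500 permutations, and 0 when probe sets below the median brightness were left out or when only variable probe sets were ranked. Over the whole array, 157 and 9 probe sets were called higher in these settings, against 620 with all probe sets ranked. Fewer probe sets are ranked in both. The FDRs of Ryr2, Atp2b2 and Atp2a2 (1398862_at) were 0.0642, 0.0643 and 0.106 without the dimmer probe sets. They were 0.983, 0.998 and 1.09 with only variable ones ranked, as this FDR can exceed 1. The 3 calls were thus not kept when the nearly constant probe sets were left out. With 1 rat left out, the probe sets of the 9 genes called higher ran from 0 (without C1, C2, C4, P4 or P5) to 3. The whole array had 61, 110, 234, 409 and 323 higher calls without C1, C2, C4, P4 and P5 in turn. No probe set was called lower or passed limma under any alternative. The median difference of the variable probe sets was 0.18 when each gene was represented by its most variable probe set, and from 0.022 (without P5) to 0.10 (without C1) with 1 rat left out. As a difference of medians, Atp2a2 (1370426_a_at) was -0.012, and Atp2b1 was 0.022 (1370050_at) and 0.12 (1386426_at), the opposite of their differences of means. With 1 rat left out, these 3 ran from -0.0049 to 0.054, from -0.29 to 0.087 and from -0.20 to 0.12, and the third probe set of Atp2b1 (1397224_at) from -0.054 to 0.10. The differences of Ryr2, Atp2b2, Itpr1 and the called probe set of Atp2a2 kept their direction in all alternatives, but the 3 calls were lost in 6, 5 and 7 (Ryr2, Atp2b2 and Atp2a2) of the 10 sets with 1 rat left out. No label says that a replicate number marks a pair, and the pairing was not taken as established, since the deviations of rats with the same number correlated above 0.1 in only 3 of 5 pairs (from -0.42 to 0.49 over all probe sets). Over the 8 variable probe sets they correlated at 0.61, 0.60, -0.46, 0.65 and 0.94 for numbers 1 to 5. With the replicate block, Ryr2 and Atp2b2 were higher in the C-group in 5 of 5 same-numbered pairs, and their standard errors were 0.07 each, against 0.20 and 0.19 without it. Their limma p-values with the block were 0.024 and 0.030 unadjusted and 0.818 each adjusted, their FDRs 0.00368 and 0.00305, and 5 of 10 rats correlated best with their own number. Over the whole array, the block gave 912 higher and 338 lower calls by rank products, against 620 and 129 without it. Precision is limited by 5 rats per group and, for 14 of the 22 probe sets, by the lack of variation in the deposited values.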
